A study of Mus musculus with 12 samples.

Results

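Interferon-stimulated genes were followed through 5 stages of dendritic cell (DC) development in the mouse. The set was a list of 51 genes given by name. Of these, 48 had a probe set on the array that names a single gene, among 22184 such genes in all. Ifi47, Gbp2 and Dtx3l were left out because their probe sets list several genes (shared with Olfr56, Gbp2b and Parp9). All cells came from steady-state, untreated Zbtb46GFP/+ mice of the C57Bl/6 strain, labelled N8, so that every population, controls included, carried a GFP reporter at 1 copy of Zbtb46, which encodes a transcription factor of the classical DC lineage. No age of the mice is stated in the sources used here. From bone marrow came the common DC progenitor (CDP, n = 3 arrays) and 2 committed progenitors, pre-CD4 (n = 2) and pre-CD8 (n = 2). From spleen came CD172a DC (n = 2) and CD24 DC (n = 3), the mature populations usually called cDC2 and cDC1. Cells were pooled from 8 to 10 littermates and sorted to more than 95% purity. The labels do not say whether the arrays of a group hold separate pools, so a p-value here reflects the spread between the arrays alone, and that spread may be technical.

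Type I interferons bind the receptor chains IFNAR1 and IFNAR2, which signal through the kinases JAK1 and TYK2 to a transcription factor complex that holds STAT2 and IRF9. That complex binds the interferon-stimulated response element in promoters of genes for antiviral effectors, nucleic acid sensors and regulators of the response. Interferon-gamma signals through JAK1 and JAK2 and favours genes such as Irf1 and those of the guanylate-binding proteins. DCs keep a basal level of these genes without infection, and IRF8, itself an interferon regulatory factor, is needed for cDC1 development.

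The promoters below, apart from that of Isg15, were chosen from genes that carry differences described later. Most of those shown hold a match. Samd9l, Ddx58, Cmpk2, Ifih1, Ifitm3 and Isg20, which also differed, had no match and are not shown. Each line gives the 160 bases before a start that the RefSeq promoter table holds for the gene, in the assembly GRCm38.p6, read along the gene. Where the table holds several starts, the one with the most matches is shown. For Slfn5, Ifitm2 and Mndal the window lies inside the gene's annotated span, and for Irf7 and Gbp3 it reaches into that span, so the start shown is not the outermost one. Capitals mark each match to the core of the interferon-stimulated response element, searched as GAAANNGAAA and, for the other strand, TTTCNNTTTC. The first group holds genes that were higher in a committed progenitor than in CDPs.
Ifi205 (chr1:174031756-174031915, minus strand): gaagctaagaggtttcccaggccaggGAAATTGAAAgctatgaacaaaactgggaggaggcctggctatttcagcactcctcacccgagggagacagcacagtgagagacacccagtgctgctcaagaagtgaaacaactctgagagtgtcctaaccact
Slfn5 (chr11:82951942-82952101, plus strand): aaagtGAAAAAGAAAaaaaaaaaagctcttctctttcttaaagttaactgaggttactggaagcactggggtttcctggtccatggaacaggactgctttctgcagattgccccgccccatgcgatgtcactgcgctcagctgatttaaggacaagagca
Trim30a (chr7:104465194-104465353, minus strand): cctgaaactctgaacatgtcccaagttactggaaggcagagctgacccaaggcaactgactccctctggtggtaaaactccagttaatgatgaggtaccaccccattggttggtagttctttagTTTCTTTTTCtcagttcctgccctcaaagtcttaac
Irf7 (chr7:141266425-141266584, minus strand): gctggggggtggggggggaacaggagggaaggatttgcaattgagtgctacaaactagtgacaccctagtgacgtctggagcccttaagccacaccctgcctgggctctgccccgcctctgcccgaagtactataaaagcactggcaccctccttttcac
Irf7 had no match in this window, which says only that these letters are not there. The next group holds genes that were lower in a committed progenitor, or lower in CD24 DCs, than in the population they were compared with.
Gbp3 (chr3:142559884-142560043, plus strand): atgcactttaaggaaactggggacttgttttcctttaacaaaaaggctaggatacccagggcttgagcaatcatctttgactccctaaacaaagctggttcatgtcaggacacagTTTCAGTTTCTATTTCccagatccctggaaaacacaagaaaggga
Gbp7 (chr3:142530176-142530335, plus strand): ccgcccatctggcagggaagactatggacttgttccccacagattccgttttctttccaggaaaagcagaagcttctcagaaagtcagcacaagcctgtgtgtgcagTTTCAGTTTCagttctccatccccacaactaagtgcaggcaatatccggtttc
Ifitm2 (chr7:140955962-140956121, minus strand): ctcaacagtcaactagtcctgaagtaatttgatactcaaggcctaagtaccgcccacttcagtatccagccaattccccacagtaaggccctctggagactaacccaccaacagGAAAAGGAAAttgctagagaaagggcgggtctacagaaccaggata
Mndal (chr1:173879959-173880118, minus strand): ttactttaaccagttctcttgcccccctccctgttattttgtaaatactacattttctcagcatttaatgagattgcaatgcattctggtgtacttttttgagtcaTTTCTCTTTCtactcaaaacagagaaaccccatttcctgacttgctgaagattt
Isg15, which encodes a ubiquitin-like protein and is a common read-out of interferon signalling, had 3 overlapping matches.
Isg15 (chr4:156200819-156200978, minus strand): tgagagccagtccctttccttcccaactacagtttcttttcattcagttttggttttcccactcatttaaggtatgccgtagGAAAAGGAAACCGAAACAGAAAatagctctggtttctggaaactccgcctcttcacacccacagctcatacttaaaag
Over the 250 bases before any start in the RefSeq table, 19 of the 39 listed members with an entry there (48.7%) held at least 1 match, against 936 of 27025 genes of the table (3.46%). A composite core that joins an IRF site to an ETS site, searched as GGAANNGAAA and TTTCNNTTCC, was found in 4 of the 39 (10.3%) and in 2.68% of all genes. A stretch of letters can match both motifs where they overlap. Among the members in the table, matches stood before 3 of the 6 that were higher in pre-CD8 cells than in CDPs and before all 4 that were lower. For pre-CD4 against CDPs it was 3 of 5 higher and 2 of 2 lower. For CD172a DCs against pre-CD4 it was 2 of 6 higher and 2 of 3 lower. For CD24 DCs it was 1 of 1 higher and 1 of 3 lower against pre-CD8, and 1 of 1 higher and 2 of 6 lower against CD172a DCs. The matches therefore lay before genes that differed in opposite directions. They are letters in a window and not measured binding sites. Promoters of Ifi204, Oas2, Mx1, Mx2, Usp18, Dhx58, Iigp1, Zbp1, Parp9, Parp14, Rtp4 and Tor3a are named only.

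Expression is given as the deposited log2 value, so that a difference of 1 is a doubling of the signal, and a value of 1 gene is not set against that of another. Array medians ran from 4.89 to 5.24 and interquartile ranges from 2.10 to 2.86, and the background level is unknown. Means of the marker lists followed the labels. The mean of 10 cDC1 genes was 9.95 to 10.32 on CD24 DC arrays and 5.67 to 5.82 on CDP arrays. The mean of 11 cDC2 genes was highest on CD172a DC arrays (7.10 to 7.47), and that of 9 progenitor genes on CDP arrays (9.95 to 10.08). Single genes of all 3 lists had another order. Batf3, Id2 and Irf8 of the cDC1 list were highest in pre-CD8, and Clec12a of the cDC2 list in CDPs. Kit of the progenitor list had means of 9.70 in CD172a DCs and 9.71 in CD24 DCs, against 8.24 in CDPs. CD24 DCs are labelled MHC class II negative, yet the class II gene H2-Ab1 read 12.06 to 12.35 on their arrays, as high as on CD172a DC arrays (11.79 and 12.06), so the sort label and the RNA disagree. The mean of 10 neutrophil genes ranged over more than 1 unit within each of CDP (6.55 to 8.03), pre-CD8 (6.33 and 8.97), CD172a DC (4.91 and 6.60) and CD24 DC (4.62 to 6.39). In sorted bulk samples, fewer cells expressing a gene and less RNA per cell cannot be told apart.

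The mean levels of the members lay at a median percentile of 75.3 among all genes and ran from percentile 32.2 to 99.2. Several members named below lay lower than that median, such as Oas2 (53.2), Ddx58 (54.5), Oasl2 (57.2), Gbp3 (55.8), Gbp7 (49.4), Rtp4 (53.7) and Slfn5 (48.5). With the background level unknown, a percentile does not say how far a gene lies above it. The range of a member's 5 population means had a median of 1.29 on the log2 scale and ran from 0.43 to 5.70, against a median of 0.62 over all genes. CDPs had the lowest mean of the 5 populations for 22 of 48 members (45.8%, against 29.4% of all genes), and CD172a DCs had the highest for 20 (41.7%, against 31.6%). CD24 DCs were highest for 10 members, pre-CD8 for 8, and pre-CD4 and CDPs for 5 each. The median over the members was 6.41, 6.18 and 6.10 on the CDP arrays, 6.56 and 6.70 in pre-CD4, 6.73 and 6.83 in pre-CD8, 6.81 and 6.77 in CD172a DCs, and 7.06, 6.81 and 6.22 in CD24 DCs. CD24 DC array 3 stood apart from the other two: it held the lowest of the 3 CD24 DC values for 33 of 48 members, and array 1 the highest for 31. A call below means an adjusted p under 0.05 in limma, adjusted over all 22184 genes. By that rule 26 members were called in at least 1 of 7 comparisons and 22 in none. The share of all genes called in at least 1 of them was not counted, so the 26 cannot be set against it.

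**Figure D1:**
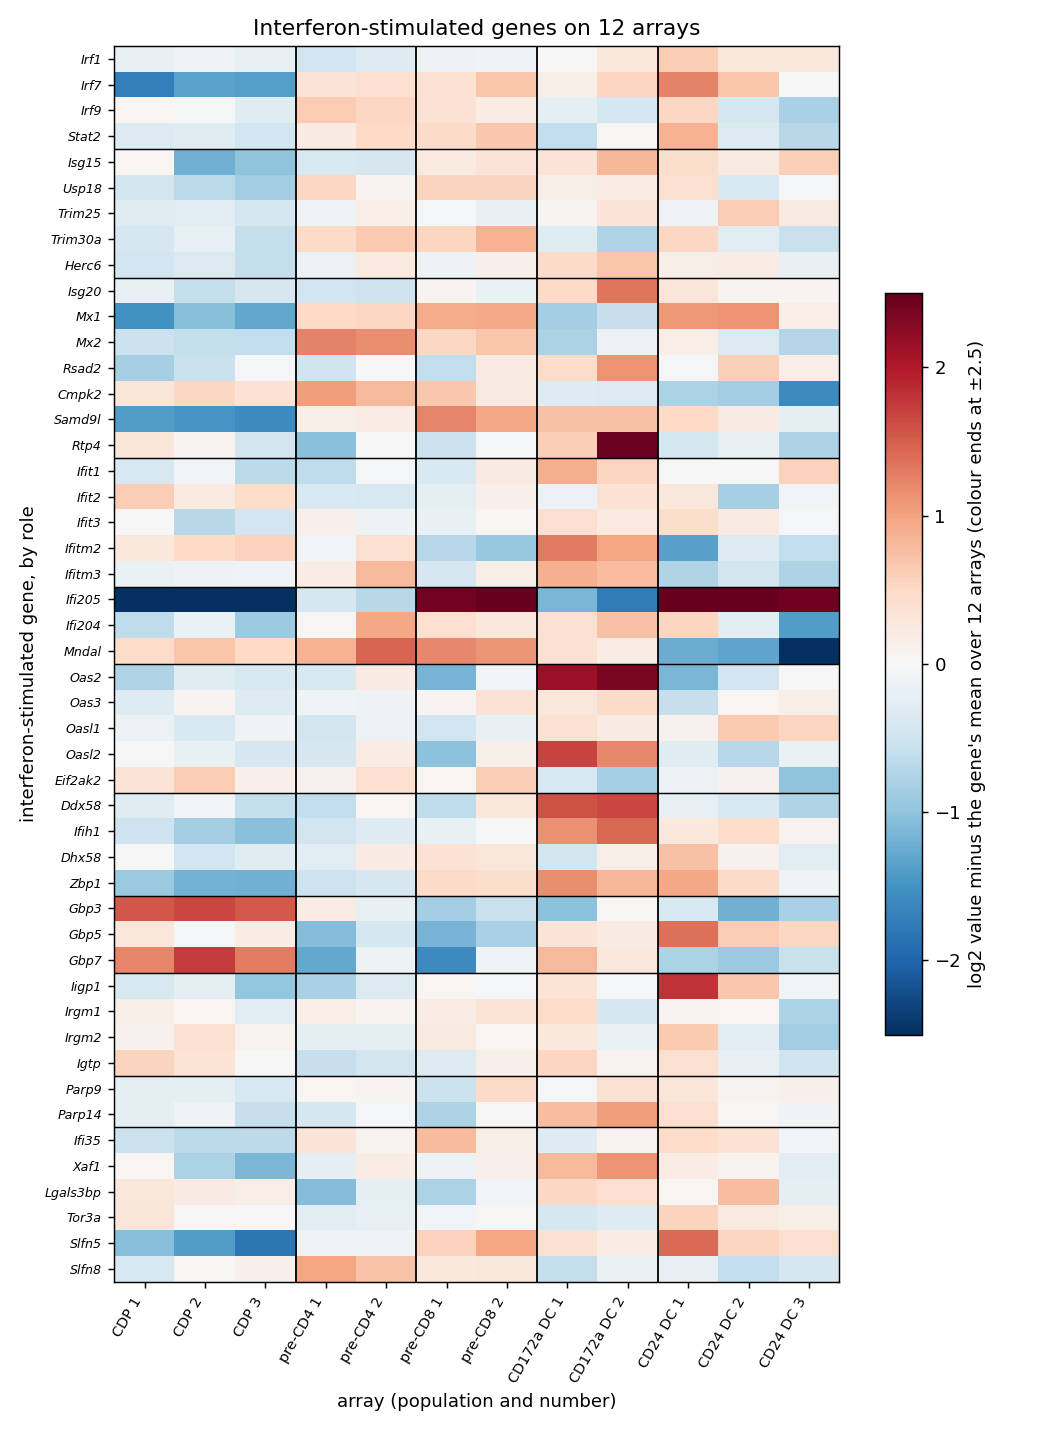
Heat map of the 48 members (rows, grouped by role) on the 12 arrays (columns, grouped by population); colour is the log2 value minus the gene's own mean over the 12 arrays, ending at 2.5 on either side. Irf7, Mx1, Samd9l and Ifi205 are blue on all 3 CDP arrays, Gbp3 and Gbp7 are red there, and Oas2, Oasl2 and Ddx58 are red on the 2 CD172a DC arrays.

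The first comparisons asked how the members differed between CDPs and the committed progenitors of the same marrow. In pre-CD8 cells 10 members were higher and 4 lower than in CDPs, and in pre-CD4 cells 8 were higher and 2 lower. The higher members included the transcription factor Irf7, the antiviral GTPases Mx1 and Mx2, Samd9l, Slfn5, Usp18 and Ifi205. The lower members were led by the guanylate-binding protein genes Gbp3 and Gbp7. Among all genes, 2.29% were called higher and 2.47% lower in pre-CD8 cells, and 2.32% higher and 2.23% lower in pre-CD4 cells. The median difference of the members was 0.31 in pre-CD8 (all genes 0.03) and 0.33 in pre-CD4 (all genes 0.02), and 32 and 33 of 48 members lay above 0. Both comparisons use the same 3 CDP arrays, so they are not separate evidence.

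Among the 4 transcription factors of the response, Irf7 was called. Irf7, the factor that amplifies type I interferon production, read 5.19, 5.59 and 5.54 in CDPs, 7.25 and 7.34 in pre-CD4, and 7.31 and 7.62 in pre-CD8. All 4 progenitor arrays lay above all 3 CDP arrays. The difference was 2.02 ± 0.30 (SE; adjusted p = 0.00124) in pre-CD8 and 1.86 ± 0.30 (adjusted p = 0.00288) in pre-CD4. Stat2, a subunit of the factor that type I interferon activates, read 7.03, 7.06 and 6.89 in CDPs, 7.57 and 7.86 in pre-CD4, and 7.85 and 8.05 in pre-CD8. Its groups did not overlap, but its differences of 0.95 ± 0.36 and 0.72 ± 0.36 had adjusted p = 0.193 and 0.396. Irf9, which gives that complex its DNA contact, read 7.35, 7.25 and 6.99 in CDPs, 7.93 and 7.82 in pre-CD4 and 7.67 and 7.48 in pre-CD8 (adjusted p = 0.304 and 0.658). Irf1, a factor induced above all by interferon-gamma, read 6.63, 6.74 and 6.62 in CDPs, 6.34 and 6.50 in pre-CD4, and 6.70 and 6.72 in pre-CD8 (adjusted p = 0.689 and 0.959).

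Of the 7 direct antiviral effectors, Mx1, Mx2 and Samd9l rose in both progenitors. Mx1, an inhibitor of influenza-type viruses that C57BL/6 mice carry in a disrupted form, read 4.58, 5.03 and 4.79 in CDPs, 6.59 and 6.60 in pre-CD4, and 7.02 and 7.04 in pre-CD8. It rose by 2.23 ± 0.27 in pre-CD8 (adjusted p = 0.000252) and by 1.80 ± 0.27 in pre-CD4 (adjusted p = 0.00173). Its paralog Mx2 had the opposite order of the progenitors, with 5.61, 5.54 and 5.52 in CDPs, 7.37 and 7.29 in pre-CD4, and 6.66 and 6.83 in pre-CD8. Mx2 rose by 1.77 ± 0.26 (adjusted p = 0.00158) in pre-CD4 cells and by 1.19 ± 0.26 (adjusted p = 0.0178) in pre-CD8 cells, and the difference between the progenitors was not called. Samd9l, which restricts viral translation, stood at 5.25, 5.18 and 5.07 in CDPs, 6.81 and 6.85 in pre-CD4, and 7.88 and 7.63 in pre-CD8, a rise of 1.67 ± 0.22 (adjusted p = 0.000675) and 2.59 ± 0.22 (adjusted p = 1.81e-05). Isg20, Rsad2, Cmpk2 and Rtp4, the other 4 of this group, were not called in either comparison.

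Ifi205 had the largest member difference of the study. It belongs to the PYHIN family of nuclear DNA-binding proteins, whose genes Ifi204, Ifi205 and Mndal are close relatives in 1 cluster, so signal could be shared between them. Ifi205 read 5.50, 5.08 and 5.71 in CDPs, 8.05 and 7.78 in pre-CD4, and 10.90 and 11.26 in pre-CD8. The 3 populations were separate, with rises of 2.49 ± 0.25 (adjusted p = 0.000105) and 5.65 ± 0.25 (adjusted p = 5.18e-08). Neither Ifi204 nor Mndal was called against CDPs; Mndal read 9.03, 9.25 and 9.07 in CDPs, 9.44 and 10.02 in pre-CD4, and 9.77 and 9.67 in pre-CD8.

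Other members that were higher belonged to several roles. Usp18, the protease that removes ISG15 and restrains IFNAR2 signalling, read 6.22, 6.01 and 5.81 in CDPs, 7.20 and 6.75 in pre-CD4, and 7.25 on both pre-CD8 arrays (0.96 ± 0.24, adjusted p = 0.039, and 1.24 ± 0.24, adjusted p = 0.00874). Slfn5, a Schlafen-family gene, read 4.09, 3.76 and 3.34 in CDPs, 5.05 and 5.04 in pre-CD4, and 5.73 and 6.13 in pre-CD8 (1.32 ± 0.30, adjusted p = 0.0221, and 2.20 ± 0.30, adjusted p = 0.000605). Both genes had all progenitor arrays above all CDP arrays. Zbp1, a sensor of Z-form nucleic acid that triggers cell death, was called in pre-CD8 and not in pre-CD4, with 6.01, 5.75 and 5.73 in CDPs, 6.42 and 6.53 in pre-CD4, and 7.42 and 7.39 in pre-CD8. It rose by 1.58 ± 0.27 in pre-CD8 (adjusted p = 0.00309), and the difference between the 2 progenitors was not called. Trim30a, an inhibitor of Toll-like receptor signalling, and Ifi35 also passed in pre-CD8, at 1.10 ± 0.29 (adjusted p = 0.0434) and 1.09 ± 0.24 (adjusted p = 0.0181), and missed the threshold in pre-CD4 (adjusted p = 0.0798 and 0.0754). A second probe set of Ifi35, not used, ran in the same direction, from a mean of 6.72 in CDPs to 7.37 in pre-CD8. Slfn8 passed in pre-CD4, with 7.53 and 7.26 against 6.16, 6.59 and 6.67 in CDPs (0.92 ± 0.22, adjusted p = 0.032). Isg15 read 5.67, 4.42 and 4.62 in CDPs, 5.22 and 5.21 in pre-CD4, and 5.87 and 5.94 in pre-CD8. Its difference in pre-CD8 was 1.00 ± 0.31 with adjusted p = 0.095, and without CDP array 1, the highest of the CDP values, it was 1.39 with adjusted p = 0.00535.

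**Figure D2:**
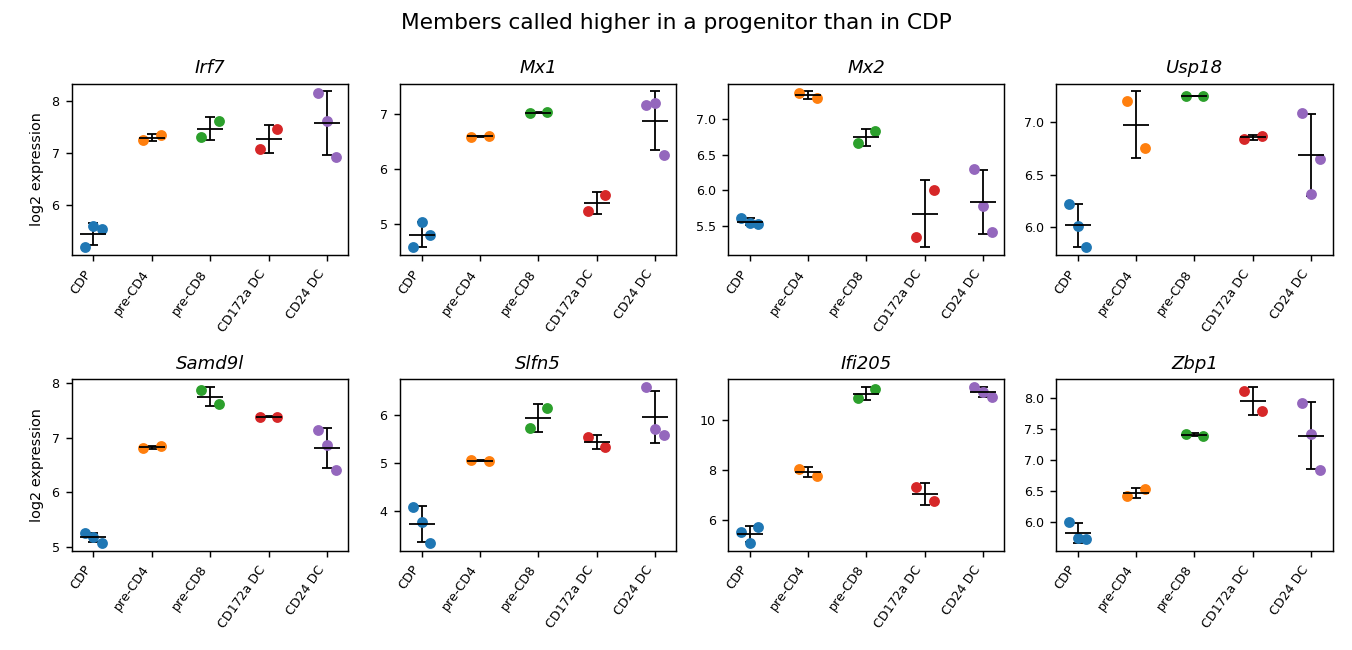
Deposited log2 expression (vertical axes, one scale per gene) of 8 members in the 5 populations; points are arrays, bars the mean and SD of 2 or 3 arrays. Each gene has its CDP points below those of pre-CD8, and Ifi205 rises from 5.08 to 5.71 in CDPs to 10.90 and 11.26 in pre-CD8.

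The guanylate-binding proteins, large GTPases that attack the membranes of intracellular pathogens, went the other way. All 3 measured members were lower in pre-CD8 than in CDPs, and 2 of 3 in pre-CD4. Gbp3 read 7.05, 7.17 and 7.02 in CDPs, 5.67 and 5.31 in pre-CD4, and 4.65 and 4.93 in pre-CD8, with no overlap. It fell by 1.59 ± 0.30 in pre-CD4 (adjusted p = 0.00745) and by 2.29 ± 0.30 in pre-CD8 (adjusted p = 0.000494). Gbp7 read 6.41, 6.94 and 6.47 in CDPs, 3.91 and 5.06 in pre-CD4, and 3.59 and 5.11 in pre-CD8. Its differences of -2.12 ± 0.41 (adjusted p = 0.00818) and -2.26 ± 0.41 (adjusted p = 0.00513) rested on progenitor arrays that lay more than 1 unit apart. Gbp5 read 4.87, 4.53 and 4.77 in CDPs and 3.42 and 3.76 in pre-CD8, a difference of -1.13 ± 0.28 (adjusted p = 0.0316), and 3.49 and 4.14 in pre-CD4, where the test was not passed (adjusted p = 0.0905). Ifitm2, a membrane protein that blocks virus entry, read 10.31, 10.55 and 10.62 in CDPs and 9.33 and 9.10 in pre-CD8, a difference of -1.28 ± 0.28 (adjusted p = 0.0175). None of the 4 measured immunity-related GTPases (Iigp1, Irgm1, Irgm2, Igtp), which act beside the guanylate-binding proteins, was called by limma. At an unadjusted p under 0.05 pre-CD8 cells had 0 and pre-CD4 cells 1 of them, which was lower. The share of all genes at that unadjusted threshold was not counted.

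Several of these calls depended on single arrays. In pre-CD8 against CDP, 7 of the 14 calls (Ifi205, Samd9l, Mx1, Slfn5, Irf7, Zbp1 and Gbp3) were kept in each of 20 alternative analyses; without pre-CD8 array 1 the calls of Usp18 (adjusted p = 0.0667), Mx2 (0.0821), Gbp7 (0.0821), Ifitm2 (0.0729), Trim30a (0.114), Ifi35 (0.235) and Gbp5 (0.247) were lost, and 9 members were called without pre-CD8 array 2, CDP array 2 or CDP array 3. Trim30a lost its call in 12 of the 20. In pre-CD4 against CDP, Ifi205, Irf7, Mx2 and Samd9l were kept in each of the 20, and 6 of 10 were called without either pre-CD4 array; Gbp7 reached 0.143 without array 1, Gbp3 0.119 without array 2, and Usp18, Slfn5 and Slfn8 between 0.0879 and 0.365 without one or the other. Genes of plasmacytoid DCs were also higher in pre-CD4: the mean of 13 such markers was 7.37 and 7.69 there against 6.21 to 6.65 in CDPs and 5.96 to 6.07 in pre-CD8, and 7 of 13 were called higher and 1 lower; their part in the pre-CD4 result was not tested. Tissue-dissociation stress genes moved too: 6 of 16 were called higher in pre-CD8 than in CDPs and 1 of 16 in pre-CD4, with means over the list of 8.15 to 8.48 in pre-CD8, 7.90 to 8.31 in pre-CD4 and 7.33 to 7.78 in CDPs. Their part in the members' differences was not tested.

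**Figure D3:**
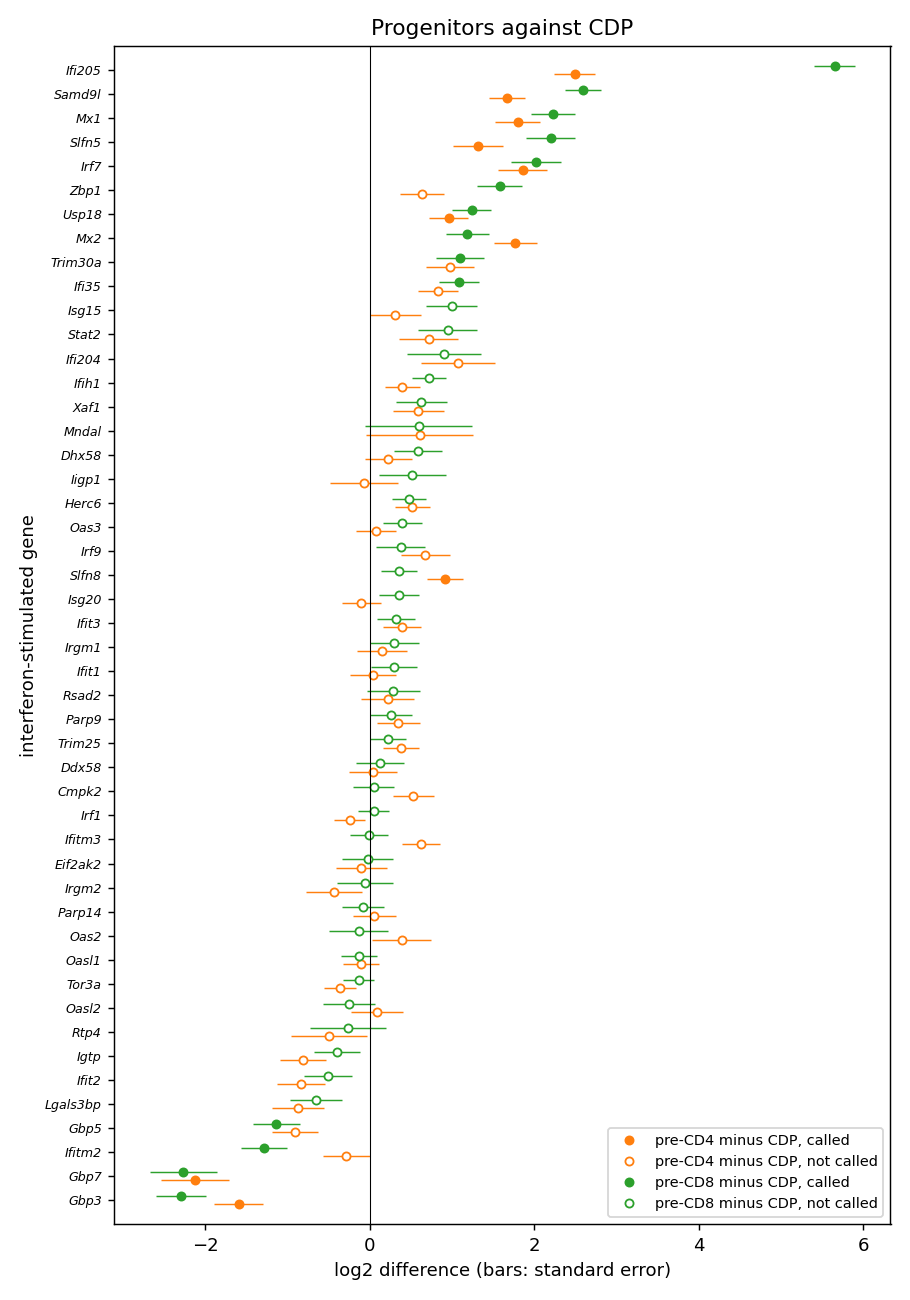
Log2 difference from CDP (horizontal axis, bars are standard errors) of the 48 members (vertical axis, ordered by the pre-CD8 difference) in pre-CD4 (orange) and pre-CD8 (green); filled points passed the test. The differences run from -2.29 for Gbp3 to 5.65 for Ifi205 in pre-CD8 and from -2.12 for Gbp7 to 2.49 for Ifi205 in pre-CD4.

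Set directly against each other, the 2 committed progenitors differed in 1 member. Ifi205 was higher in pre-CD8 than in pre-CD4 by 3.16 ± 0.28 (adjusted p = 7.13e-05), and it was kept in all 20 alternatives. Limma called 0 members lower, where 0.383% of all genes were called higher and 0.32% lower. At an unadjusted p under 0.05, 4 members were higher and 3 lower, and the share of all genes at that threshold was not counted. Samd9l, the next by evidence, differed by 0.92 ± 0.24 with adjusted p = 0.144, so the larger rise of Samd9l in pre-CD8 was not shown to differ from that in pre-CD4. The median difference of the members was 0.14 (all genes 0.01).

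The maturation comparisons set each spleen population against the marrow progenitor of its lineage. They differ in tissue and in preparation as well as in stage, since marrow was crushed and spleen digested with enzymes, and these cannot be told apart. The mean of 16 tissue-dissociation stress genes was 9.72 and 10.07 in CD172a DCs and 9.44 to 9.95 in CD24 DCs, against 7.90 to 8.31 in pre-CD4 and 8.15 to 8.48 in pre-CD8. Of the 16, 11 rose in CD172a DCs against pre-CD4 and 8 in CD24 DCs against pre-CD8. Their part in the members' differences was not tested.

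CD172a DCs against pre-CD4 gave the most member calls, with 10 higher and 5 lower. The higher members were RNA sensors, enzymes of the 2-5A pathway and other effectors; the lower ones were Mx1, Mx2, Cmpk2, Slfn8 and Trim30a. These were 20.8% and 10.4% of the members, against 4.7% of all genes called higher and 8.02% lower. The share of members called lower was thus near that of all genes. The median difference was 0.44 for the members and 0.09 for all genes. The split differed between settings. Members called higher made up 66.7% of calls here and 78.9% (15 of 19) after quantile normalization. With the array's interquartile range as a covariate it was 100% (6 of 6). Among all genes the share went from 36.9% to 43.7% and 50.4%. That range was 2.17 and 2.35 on CD172a DC arrays and 2.74 and 2.6 on pre-CD4 arrays, without overlap. The covariate therefore takes up part of the population difference. In calls lost under it, scale and population cannot be told apart. With that covariate the median of all genes moved to -0.04.

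Of the 4 sensors of nucleic acid in the cytosol, 3 were higher in CD172a DCs. Ifih1, which encodes the long double-stranded RNA sensor MDA5, read 8.21 and 8.51 in CD172a DCs against 6.58 and 6.74 in pre-CD4, a rise of 1.70 ± 0.23 (adjusted p = 0.000335). Ddx58, the gene of the sensor RIG-I, read 7.01 and 7.10 against 4.81 and 5.48 (1.91 ± 0.32, adjusted p = 0.00145). Zbp1 read 8.10 and 7.78 against 6.42 and 6.53 (1.47 ± 0.29, adjusted p = 0.00449). For each of these genes both CD172a DC arrays were higher than both pre-CD4 arrays. Dhx58, the regulator LGP2, was not called, with 6.18 and 6.78 against 6.36 and 6.84.

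Oas2 makes 2-5A, the messenger that activates RNase L. It read 7.50 and 7.71 in CD172a DCs and 4.96 and 5.57 in pre-CD4, a rise of 2.34 ± 0.39 (adjusted p = 0.00146). Oasl2, an OAS-like gene with close paralogs, read 7.26 and 6.77 against 5.15 and 5.75 (1.56 ± 0.35, adjusted p = 0.0102). Oas3, Oasl1 and Eif2ak2 (the kinase PKR) were not called. Isg20, an exonuclease that degrades viral RNA, read 6.53 and 7.38 against 5.55 and 5.52 (1.42 ± 0.27, adjusted p = 0.00319). Rtp4, a chaperone of G protein-coupled receptors, differed by 2.06 ± 0.50 (adjusted p = 0.015), but its 2 CD172a DC arrays read 6.01 and 7.86, and without the second the adjusted p was 0.144. Parp14, Ifit1 and Gbp5 passed by smaller margins, at 1.16 ± 0.29 (adjusted p = 0.0177), 1.07 ± 0.31 (adjusted p = 0.0355) and 1.03 ± 0.30 (adjusted p = 0.0391).

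Of the 5 members that fell, Mx1, Mx2 and Slfn8 were also called higher in pre-CD4 than in CDPs, in a comparison that uses the same pre-CD4 arrays. Mx2 read 5.34 and 6.00 in CD172a DCs against 7.37 and 7.29 in pre-CD4, a difference of -1.66 ± 0.29 (adjusted p = 0.00178), and Mx1 read 5.23 and 5.52 against 6.59 and 6.60, a difference of -1.22 ± 0.29 (adjusted p = 0.0148). Slfn8 stood at 5.95 and 6.38 against 7.53 and 7.26, a difference of -1.23 ± 0.25 (adjusted p = 0.00461). Cmpk2, the mitochondrial nucleotide kinase encoded next to Rsad2, read 6.22 and 6.19 against 7.59 and 7.35, a difference of -1.26 ± 0.28 (adjusted p = 0.00817). Trim30a fell by 1.09 ± 0.31 (adjusted p = 0.0354), from 7.84 and 8.02 to 7.06 and 6.61. Irf7, in contrast, read 7.08 and 7.46, a difference of -0.03 ± 0.33 (adjusted p = 0.966). Irf9 and Stat2 read 7.06 and 6.86, and 6.75 and 7.40, in CD172a DCs (adjusted p = 0.0918 and 0.333 against pre-CD4), Irf1 read 6.81 and 7.11 (adjusted p = 0.118), and Isg15 read 5.94 and 6.45 (adjusted p = 0.0788).

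Oas2, Ddx58, Ifih1 and Isg20 kept their call in each of the 20 alternatives. With the interquartile range as a covariate none of the members that fell was called. The adjusted p was then 0.264 for Mx1, 0.0521 for Mx2, 0.0551 for Slfn8, 0.192 for Cmpk2 (difference -0.72) and 0.35 for Trim30a. Fewer members were called without pre-CD4 array 1 (6; Rtp4 at adjusted p = 0.182, Oasl2 at 0.126, Mx1 at 0.0901 and Gbp5 at 0.354) or without CD172a DC array 1 (7; Zbp1 at 0.0551, Oasl2 at 0.113 and Mx1 at 0.126), Parp14, Ifit1, Gbp5 and Trim30a were lost without CD172a DC array 2 (0.107, 0.0647, 0.105 and 0.195), and 5, all higher, without the 5 arrays numbered 1. The mean over 16 monocyte and macrophage markers was also higher in CD172a DCs, at 7.30 and 7.33 against 6.79 and 6.98 in pre-CD4. Of the 16, 6 were called higher and 2 lower, and single genes went far in both directions. The mean of Ly6c2 was 11.57 in pre-CD4 and 4.32 in CD172a DCs, and that of Ccr2 10.53 and 6.93. Adgre1 had 5.55 and 9.31, and Nr4a1, which is also on the dissociation stress list, 7.12 and 12.07. Plasmacytoid DC markers were lower, with a mean over 13 genes of 5.81 and 5.94 against 7.37 and 7.69 in pre-CD4 and 8 of 13 called lower and 1 higher. The part of either list in the members' differences was not tested.

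In the cDC1 lineage fewer members passed. CD24 DCs against pre-CD8 gave 1 member higher, Gbp5, and 3 lower, Mndal, Cmpk2 and Samd9l. These were 2.08% and 6.25% of the members, beside 2.65% of all genes called higher and 3.66% lower. With so few calls the members were not shown to differ from all genes. The member median was 0.00 (all genes 0.05), with 24 of 48 above 0. After quantile normalization 6 members were called, 3 of them higher, which moved the share called higher from 25% to 50%. Gbp5 read 5.95, 5.21 and 5.10 in CD24 DCs against 3.42 and 3.76 in pre-CD8, a rise of 1.83 ± 0.28 (adjusted p = 0.000949). The call was kept in the 19 alternatives that tested it. The filter on dim genes left Gbp5 out, since its mean over all arrays, 4.58, lay at percentile 33.5 among all genes. Its pre-CD8 values lay below the medians of those arrays (4.96 and 5.08). The background level is unknown, so how far these values lie above it cannot be said. Cmpk2 read 5.75, 5.70 and 4.95 against 7.22 and 6.76, a difference of -1.52 ± 0.25 (adjusted p = 0.00193; 0.0509 without pre-CD8 array 1). Mndal read 7.33, 7.24 and 4.26 against 9.77 and 9.67, so array 3 alone was far below the others; the difference of -3.44 ± 0.65 had adjusted p = 0.00529, and 0.0603 without pre-CD8 array 1. Samd9l, high in pre-CD8, read 7.15, 6.87 and 6.41 against 7.88 and 7.63, a difference of -0.94 ± 0.22 (adjusted p = 0.0189; 0.237 without pre-CD8 array 1 and 0.0508 without array 2). Without pre-CD8 array 1 the call of Gbp5 was the only one left, and without CD24 DC array 1 there were 9 calls, 7 of them lower.

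Of the 14 members called between pre-CD8 and CDPs, only Gbp5 and Samd9l were called between CD24 DCs and pre-CD8, which share the pre-CD8 arrays with the former. Ifi205 read 11.33, 11.14 and 10.92 in CD24 DCs beside 10.90 and 11.26 in pre-CD8. Mx1 read 7.17, 7.21 and 6.26 beside 7.02 and 7.04, and Irf7 read 8.16, 7.62 and 6.93 beside 7.31 and 7.62 (0.10 ± 0.30, adjusted p = 0.902). For these 3 genes the arrays of both populations overlapped. Among the other factors, Irf1 read 7.46, 7.11 and 7.10, above both pre-CD8 arrays, without passing the test (adjusted p = 0.164). Irf9 and Stat2 spread over more than 1 unit within CD24 DCs, at 7.81, 6.89 and 6.50 and at 8.24, 7.03 and 6.68. Isg15 read 6.07, 5.85 and 6.22 (adjusted p = 0.866).

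**Figure D4:**
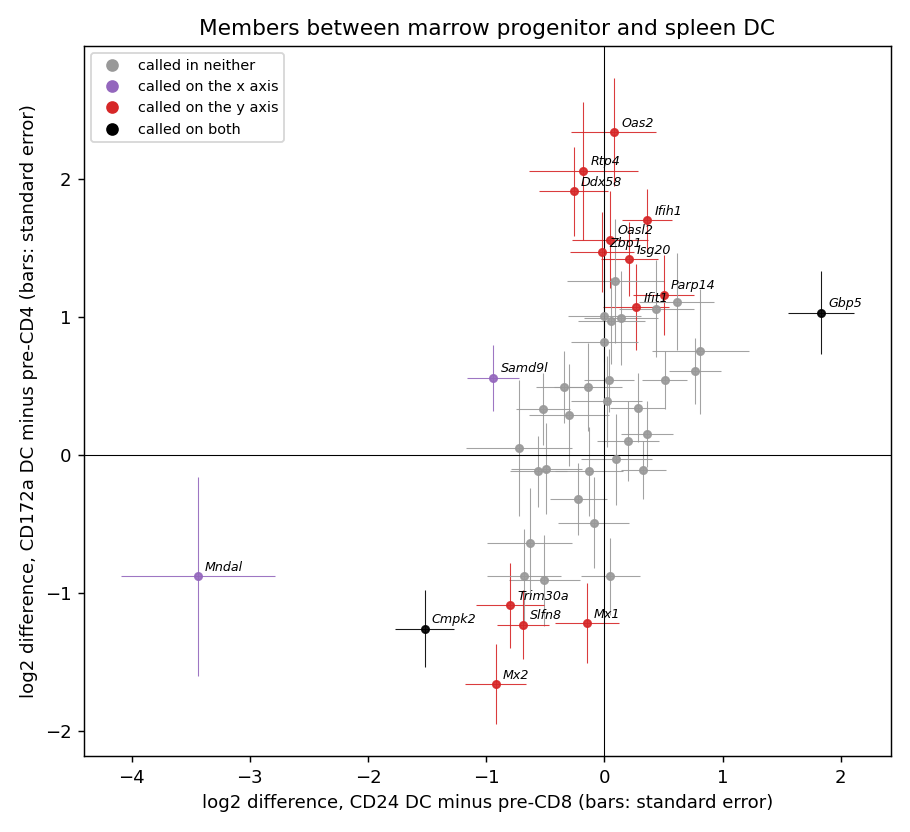
Log2 difference of the 48 members between CD24 DC and pre-CD8 (horizontal axis) and between CD172a DC and pre-CD4 (vertical axis); bars are standard errors, colours mark which comparison passed the test, and the 2 comparisons share no arrays. Cmpk2 (lower) and Gbp5 (higher) passed on both axes, while Oas2, at 2.34 on the vertical axis, lies near 0 on the horizontal one. On the vertical axis neither Cmpk2 nor Gbp5 was called with the interquartile range as a covariate.

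The spleen populations differed from each other in 10 members, 2 higher and 8 lower in CD24 DCs than in CD172a DCs. Among all genes 3.21% were called higher and 2.37% lower. The member median was -0.26 (all genes -0.01), and 18 of 48 members lay above 0. Ifi205 was higher in CD24 DCs, at 11.33, 11.14 and 10.92 against 7.34 and 6.74 (4.09 ± 0.25, adjusted p = 1.19e-06). Mx1 was higher too, at 7.17, 7.21 and 6.26 against 5.23 and 5.52 (1.50 ± 0.27, adjusted p = 0.0043). Of the 5 OAS and PKR genes 2 were called lower, as were 2 of the 4 sensors, and none of either group higher. Oas2 read 4.22, 4.88 and 5.38 against 7.50 and 7.71, a difference of -2.78 ± 0.36 (adjusted p = 0.000387). Ddx58 read 5.22, 5.03 and 4.67 against 7.01 and 7.10, a difference of -2.08 ± 0.29 (adjusted p = 0.00073). Groups did not overlap for any of these genes.

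Oasl2 was lower by the same comparison, with 5.26, 4.84 and 5.39 against 7.26 and 6.77 (-1.85 ± 0.32, adjusted p = 0.00363). Ifih1 read 7.33, 7.53 and 7.15 against 8.21 and 8.51 (-1.02 ± 0.21, adjusted p = 0.0116). Ifitm2 and Ifitm3, related genes whose signal may be shared in part, were both lower in CD24 DCs. Ifitm2 read 8.68, 9.71 and 9.43 against 11.35 and 11.02 (-1.91 ± 0.28, adjusted p = 0.001), and Ifitm3 read 9.60, 9.89 and 9.58 against 11.24 and 11.13 (-1.49 ± 0.23, adjusted p = 0.00173). Mndal had its 3 CD24 DC arrays below 8.95 and 8.75 in CD172a DCs, a difference of -2.57 ± 0.65 (adjusted p = 0.0352), and Rtp4 read 4.96, 5.20 and 4.61 against 6.01 and 7.86 (-2.01 ± 0.46, adjusted p = 0.019). Ifi205, Oas2, Ddx58, Ifitm2 and Ifitm3 were kept in each of the 20 alternatives. Without CD172a DC array 1 the adjusted p was 0.0761 for Oasl2, 0.0749 for Mx1 and 0.25 for Mndal, and without array 2 it was 0.117 for Ifih1, 0.143 for Mndal and 0.237 for Rtp4; Rtp4 stood at 0.0553 without CD24 DC array 3.

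**Figure D5:**
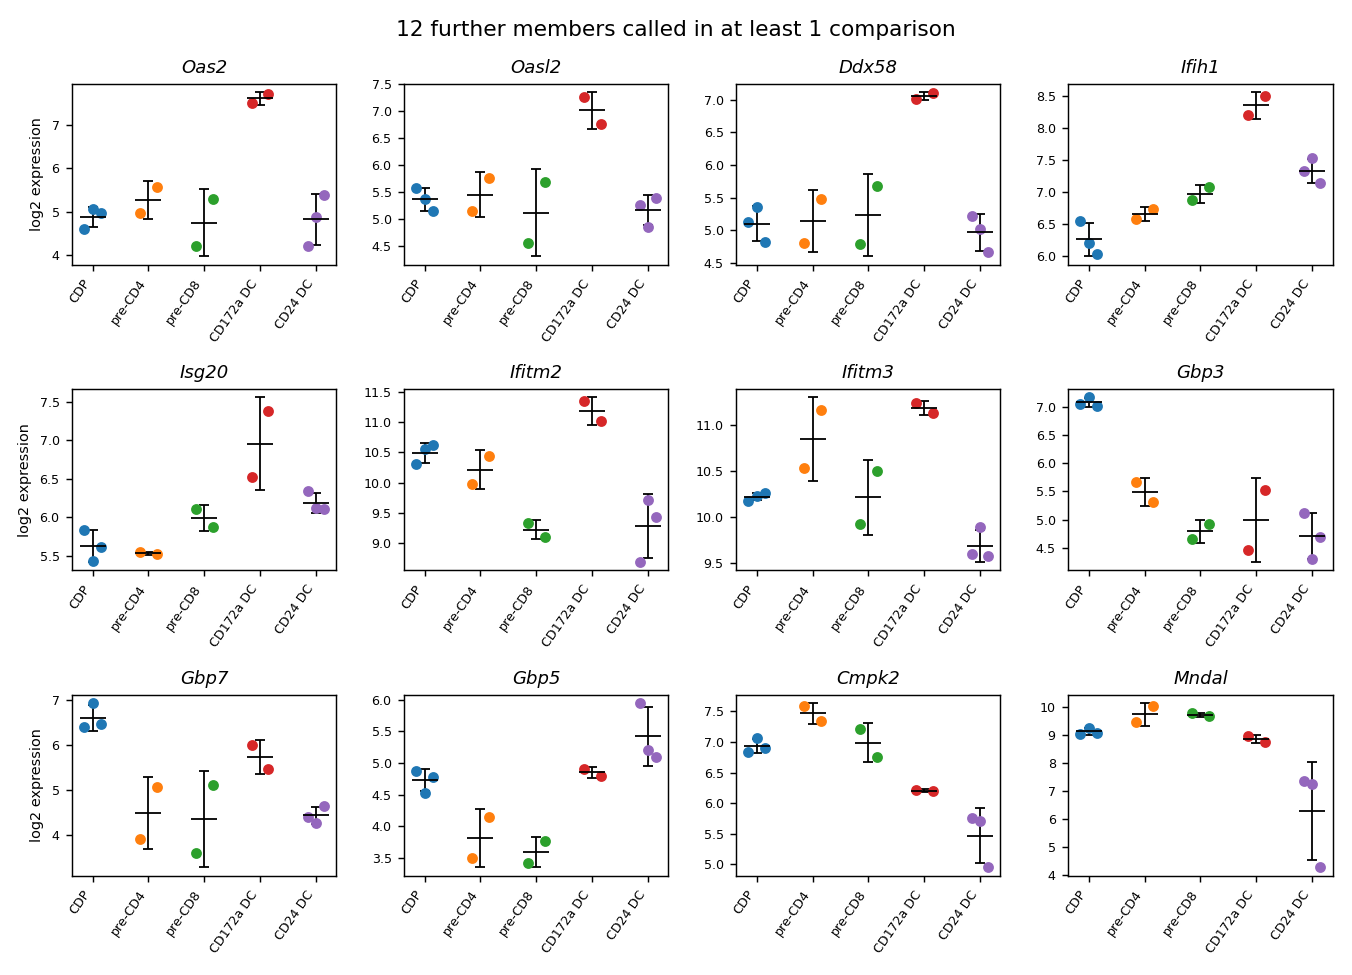
Deposited log2 expression (vertical axes, one scale per gene) of 12 further members in the 5 populations; points are arrays, bars the mean and SD of 2 or 3 arrays. Oas2, Oasl2, Ddx58 and Ifih1 are highest on the CD172a DC arrays, Gbp3 is highest on the CDP arrays (7.02 to 7.17), and 1 CD24 DC array of Mndal lies at 4.26.

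Whether the lineage difference (cDC1 minus cDC2) changed from marrow to spleen was tested by the interaction of lineage and stage. Limma called 0 members higher and 2 lower, Ddx58 (-2.17 ± 0.43, adjusted p = 0.0297) and Samd9l (-1.50 ± 0.32, adjusted p = 0.0477), where 0.5% of all genes were called higher and 0.532% lower. At an unadjusted p under 0.05, 2 members were higher and 13 lower. The share of all genes at that looser threshold was not counted, so these counts cannot be set against it. Ddx58 read about alike in both marrow progenitors (4.79 and 5.68 in pre-CD8, 4.81 and 5.48 in pre-CD4) and separated in spleen. Samd9l stood higher on the pre-CD8 than on the pre-CD4 arrays and lower on the CD24 DC than on the CD172a DC arrays (7.39 and 7.38). Neither call was kept in every alternative: Ddx58 lost it in 8 of 20, with adjusted p up to 0.178 (without pre-CD4 array 1), and Samd9l in 12, up to 0.414 (without the arrays numbered 1) and, with 1 array left out, up to 0.196 (without pre-CD4 array 1). For Oas2 and Ifih1 the interaction was -2.26 ± 0.53 and -1.34 ± 0.32 with adjusted p = 0.0709 and 0.0711, and over the 20 alternatives Oas2 passed in 6 (adjusted p from 0.00609 to 0.324) and Ifih1 in 3 (0.0249 to 0.395).

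The 22 members with no call in the fit of all arrays were Irf1, Irf9, Stat2 and Isg15, all 4 measured immunity-related GTPases, Ifit2 and Ifit3, Oas3 and Oasl1, Rsad2, Eif2ak2, Dhx58, Ifi204, Parp9, Trim25, Herc6, Xaf1, Lgals3bp and Tor3a. Some of them passed under an alternative, as Isg15 did without CDP array 1. Iigp1, a GTPase that disrupts parasite vacuoles, read 6.34, 5.21 and 4.47 on the 3 CD24 DC arrays, a range that covers the 4.88 and 4.51 of CD172a DCs. Xaf1, a pro-apoptotic gene, read 7.91 and 8.23 in CD172a DCs, above all 10 other arrays (5.95 to 7.28), with adjusted p = 0.0686 against pre-CD4 and 0.0921 against CD24 DCs.

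The rest of the pathway was taken from lists of genes by role. Of 17 measured receptor, kinase, STAT and inhibitor genes, 2 were higher in pre-CD8 than in CDPs (Jak2 and Tyk2) and 1 in pre-CD4 (Jak2), and none was lower, beside the 2.29% and 2.32% of all genes called higher. Jak2, the kinase of the interferon-gamma and several cytokine receptors, read 7.65, 7.92 and 7.91 in CDPs, 9.73 and 9.91 in pre-CD4, and 9.43 and 9.41 in pre-CD8. It rose by 2.00 ± 0.20 (adjusted p = 8.21e-05) and 1.59 ± 0.20 (adjusted p = 0.000292). Tyk2 rose by 1.19 ± 0.22 (adjusted p = 0.00605; 0.112 without array 2) in pre-CD8. The receptor genes Ifnar1, Ifnar2, Ifngr1 and Ifngr2 were not called against CDPs.

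In the step to spleen the receptor genes Ifnar2 and Ifngr1 went in opposite directions in both lineages. Ifnar2 fell by 1.24 ± 0.26 (adjusted p = 0.0113) in CD24 DCs against pre-CD8 and by 1.25 ± 0.29 (adjusted p = 0.0116) in CD172a DCs against pre-CD4. The first call was lost in 3 of 20 alternatives (up to 0.0986, without pre-CD8 array 2) and the second in 5 (0.153 without CD172a DC array 1, 0.194 with the interquartile range as a covariate and 0.245 without the arrays numbered 1). Ifngr1 rose by 1.39 ± 0.25 (adjusted p = 0.00368) and 1.48 ± 0.27 (adjusted p = 0.00292), each call being lost in 2 alternatives (up to 0.0956, without pre-CD8 array 1, and up to 0.0547, with the covariate). Ifnar1 and Ifngr2 were not called. Of the 17 genes, 2 were higher and 1 lower in CD24 DCs (2.65% and 3.66% of all genes), and 2 higher and 3 lower in CD172a DCs (4.7% and 8.02%).

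Among 19 measured interferon genes, Ifnk was higher than in CDPs in pre-CD8 and pre-CD4 (1.90 ± 0.36, adjusted p = 0.00634, and 2.08 ± 0.36, adjusted p = 0.00405) and no other was called there, where 2.29% and 2.32% of all genes were called higher. Its call was lost without pre-CD8 array 1 or without the arrays numbered 1 in the former, and without pre-CD4 array 2 in the latter. Ifnk was also called lower in CD24 DCs than in pre-CD8 and in CD172a DCs than in pre-CD4, beside 3.66% and 8.02% of all genes. The call in CD24 DCs was lost in several alternatives, such as quantile normalization (adjusted p = 0.0566). Ifna4 was higher in CD172a DCs than in pre-CD4 by 1.55 ± 0.36 (adjusted p = 0.0127), in a family of near-identical genes whose signal may be shared. The difference was 0.68 (adjusted p = 0.322) with the interquartile range as a covariate, and the adjusted p was 0.148 without CD172a DC array 1, 0.132 without pre-CD4 array 1 and 0.126 without the arrays numbered 1. Ifna4 was also called lower in CD24 DCs than in CD172a DCs, beside 2.37% of all genes. That call was lost with only the groups compared (adjusted p = 0.056). Of 18 sensing genes, adaptors and IRFs, 3 were higher and 1 lower in pre-CD8 than in CDPs, beside 2.29% and 2.47% of all genes. In pre-CD4, 2 were higher and 2 lower, beside 2.32% and 2.23% of all genes. Tlr7, an endosomal sensor of single-stranded RNA, read 8.87 and 9.47 in CD172a DCs and 3.69 to 3.87 in CD24 DCs, a difference of -5.36 ± 0.33 (adjusted p = 1.19e-06). Irf8 had the reverse order, at 7.97 and 8.80 in CD172a DCs and 11.68 to 12.15 in CD24 DCs (3.51 ± 0.24, adjusted p = 2.43e-06), and Irf3 was not called in any comparison.

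A further list of 62 measured interferon-stimulated genes outside the 48 gave 9 higher and 1 lower than CDPs in each of the committed progenitors, where 2.29% and 2.47% of all genes were called in pre-CD8 and 2.32% and 2.23% in pre-CD4. Phf11b rose by 3.29 ± 0.25 (adjusted p = 5.59e-06) in pre-CD8 and by 1.75 ± 0.25 (adjusted p = 0.00111) in pre-CD4, and Slfn2, a Schlafen gene linked to immune cell quiescence, by 2.01 ± 0.27 (adjusted p = 0.000563) and 1.92 ± 0.27 (adjusted p = 0.00108). In CD172a DCs against pre-CD4, 17 were higher and 5 lower (4.7% and 8.02% of all genes), and in CD24 DCs against pre-CD8, 10 were higher and 5 lower (2.65% and 3.66%). Gbp8 rose by 4.26 ± 0.55 (adjusted p = 0.000223) and 2.66 ± 0.51 (adjusted p = 0.00527; 0.0643 without pre-CD8 array 2) in these comparisons, beside the call of Gbp5 in both. Cxcl9, an interferon-gamma-induced chemokine, rose by 4.11 ± 0.33 (adjusted p = 5.06e-06) and 3.96 ± 0.31 (adjusted p = 7.97e-06). Between the spleen populations 10 were higher and 8 lower in CD24 DCs (3.21% and 2.37% of all genes); Oas1g, another 2-5A synthetase gene, differed by -2.97 ± 0.37 (adjusted p = 0.000293) and Ddx60, a helicase gene, by -1.87 ± 0.26 (adjusted p = 0.000725).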

How the data were processed

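Per the labels' protocols, RNA of sorted cells went through NuGEN Ovation Pico WTA amplification and biotin labelling before hybridisation to an Affymetrix whole-transcript array. The authors deposited log2 expression values, 1 for every probe set on every array. The sources used here do not state the background correction, summarization, normalization or genome build, and a compressed or uneven scale between arrays would change small differences most. Of 35145 probe sets, 23525 had 1 symbol, 1810 several and 9810 none; for 1082 genes with several single-symbol probe sets the one with the highest mean was used. All 12 arrays entered 1 fit with limma 3.58.1 in R 4.3.3 (lmFit, eBayes; 7 residual and 6.18 prior degrees of freedom), with 1 mean per population, two-sided p-values and Benjamini-Hochberg adjustment over 22184 genes. The fit was tested on simulated data. The number of arrays limits the precision. Alternatives were quantile normalization, the interquartile range as a covariate, a filter on genes under the 40th percentile of mean expression, the mean of probe sets, an intensity trend, only the groups compared, the array number as a block, and leaving out arrays. By rule any member could be named, and array values were given for, per comparison, up to 6 called in each direction with the largest difference, plus Irf1, Irf7, Irf9, Stat2 and Isg15; array values of other members, such as Xaf1 and Iigp1, were chosen after they were seen. Named pathway genes were up to 4 called per list. The members and lists were chosen with earlier results of these data known.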

Additional observations from a re-analysis of the deposited data

Results flagged for a closer look

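The lineage difference (CD24 DC minus CD172a DC in spleen, pre-CD8 minus pre-CD4 in marrow) differed between the stages for 2 members by the interaction test in limma. Ddx58 had an interaction of -2.17 ± 0.43 on the log2 scale (adjusted p = 0.0297), with 12 of 20 alternatives passing the threshold and adjusted p from 0.0153 to 0.178. Samd9l had -1.50 ± 0.32 (adjusted p = 0.0477), with adjusted p from 0.00427 to 0.414 over the alternatives.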

How the results depend on the processing

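The 89 single-member results counted here were the called members of each comparison plus Irf7, Irf1, Irf9, Stat2 and Isg15. None of their 1777 alternative values reversed, 1611 kept their side of the threshold, 150 lost the call and 16 gained it. Gains by other uncalled members are not in that count. Lgals3bp, for example, passed in CD172a DC against pre-CD4 with the replicate block (1.11, adjusted p = 0.0202). With 1 array left out, members called ran from 7 to 15 in pre-CD8 against CDP, 6 to 12 in pre-CD4 against CDP, 1 to 1 in pre-CD8 against pre-CD4, 1 to 9 in CD24 DC against pre-CD8, 6 to 20 in CD172a DC against pre-CD4, 7 to 11 in CD24 DC against CD172a DC, and 0 to 4 in the interaction. The interquartile range as a covariate gave 2 members in pre-CD8 against pre-CD4, 6 in CD172a DC against pre-CD4 and 6 in the interaction. Without the 5 arrays numbered 1 there were 2 in CD24 DC against pre-CD8, 5 in CD172a DC against pre-CD4 and 0 in the interaction. The interaction also gave 5 after quantile normalization, 4 after the filter on dim genes and 0 with only the groups compared, where fewer arrays entered the fit; the cause of the other changes was not tested. Array numbers were not read as pairs, because no comparison holds 3 pairs. Arrays of the same number did resemble each other outside CD172a DCs. In deviations from the population means, 13 of 21 same-number pairs had r over 0.1, from 0.102 to 0.421. The 8 with a CD172a DC array ran from -0.162 to 0.0241, and 8 of 12 arrays were closest to one of their own number. In populations of 2 arrays the deviations mirror each other, so these pairs are not separate counts. The main fit leaves an effect of the number out, and its source was not tested. With the replicate block, member calls were 13, 11, 1, 4, 22, 11 and 3 in the order above; it added Oas2 to the interaction (-2.42, adjusted p = 0.00609) and, among members with no call in the fit of all arrays, Igtp, Rsad2, Irf9, Xaf1, Eif2ak2, Lgals3bp and Tor3a in 1 comparison each. Few arrays and an unknown background limit what can be said of members with low values.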
